A study of Mus musculus with 20 samples.

Results

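The 10 claudin genes described here are Cldn1, Cldn3, Cldn4, Cldn5, Cldn6, Cldn7, Cldn9, Cldn10, Cldn11 and Cldn12. They are 10 of the 24062 genes in the count tables. The family was chosen because Cldn7 was higher in the pituitary libraries labelled Klf14 knockout (KO), so every member's value in that contrast is given below as a description. Where a member is said to be called there, that too supports nothing.

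Claudins are multi-pass membrane proteins that form the strands of tight junctions, the belt-like contacts that close the space between neighbouring cells. The set of claudins a cell makes decides how tight the contact is and which ions pass it. Anterior pituitary hormone cells derive from an epithelium, and the folliculostellate cells between them are known for junctions around small lumens. In white fat, tight junctions are chiefly a feature of blood vessels.

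Polyadenylated RNA was sequenced from the pituitary and the inguinal white adipose tissue (iWAT, the fat pad under the skin of the groin) of male C57BL/6N mice on chow. Each tissue gave 5 libraries labelled KO, described as carrying a germline deletion of Klf14, and 5 labelled wild type (WT), 20 in all. Klf14 encodes a Krüppel-like zinc finger transcription factor. Mice labelled KO were 19 to 21 weeks old (mean 20.6, with 4 of 5 at 21 weeks), and mice labelled WT 18 to 21 weeks (mean 19.6, with 2 of 5 at 21 weeks). Libraries are named below by their label and number. The same 10 numbers occur in both tissues, and since no label ties a library to an animal of its own, p-values measure the spread between libraries.

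Total counts were 13.6 to 17.6 M (mega) in pituitary and 14.8 to 18.7 M in iWAT. Klf14 itself went against the labels. It was at 30.2 to 38.0 normalised CPM (counts per mega counts) in the pituitary libraries labelled KO and at 13.9 to 18.8 CPM in those labelled WT, and the counts over its exon cannot show a deleted part. Directions are therefore those of the labels. All 12 hormone cell markers were higher in WT pituitary than in WT iWAT, and all 6 adipocyte markers were lower. In iWAT the hormone markers summed to 0.964 to 2.17 CPM in the labelled WT libraries. In those labelled KO the median sum was 2.31 CPM, and library 32 had 120 CPM. Lep was at 0 in every pituitary library and Adipoq at 0 in those labelled WT.

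Cldn7 encodes claudin-7, a claudin of epithelial cells that is known to bind the adhesion protein EpCAM. Its counts cover 5 exons, 1453 bases in all, at chr11:69964779-69967886 on the plus strand (mm10), and no other gene of the count tables shares an exon base with it. In the pituitary libraries labelled KO it was at 14.2 CPM (31), 14.0 (32), 11.9 (35), 14.1 (50) and 13.6 (66). In those labelled WT it was at 7.05 CPM (33), 6.86 (34), 6.07 (48), 6.47 (49) and 6.41 (56). The groups did not overlap: the lowest labelled KO library, 35, stood at 11.9 and the highest labelled WT library, 33, at 7.05. These levels rest on 182 to 253 counts a library with the KO label and 90 to 114 with the WT label. The log2 fold change was 1.04 (SE 0.0895, n = 5 each), which is 2.06-fold. It lay between 1.02 and 1.09 with each library left out in turn, and was 0.95 among mice of 21 weeks.

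Of the 10 members, 1 passed edgeR's quasi-likelihood test in this contrast, namely Cldn7, where 0.549% of the 16389 genes tested passed (0.415% higher, 0.134% lower). Nothing is read from that count, because Cldn7 chose the family.

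Upstream sequence is shown for Cldn7 and for Cldn3 and Cldn4, the members it varied with in iWAT (below), because Krüppel-like factors are known to bind GC-rich boxes. Each line gives the 250 bases before the transcript start, from RefSeq on GRCm38.p6, 5′ to 3′ on the gene's own strand. Windows that run into an annotated exon, the second Cldn7 start among them, are not printed. Capitals mark matches, on either strand, to any of 3 motifs. The GC box was searched as GGGCGG. The so-called CACC box was searched as CACCC. The E-box that Snail and Zeb repressors are known to bind was searched as CACCTG. Overlapping matches were each counted.
Cldn7, chr11:69964529-69964778, plus strand: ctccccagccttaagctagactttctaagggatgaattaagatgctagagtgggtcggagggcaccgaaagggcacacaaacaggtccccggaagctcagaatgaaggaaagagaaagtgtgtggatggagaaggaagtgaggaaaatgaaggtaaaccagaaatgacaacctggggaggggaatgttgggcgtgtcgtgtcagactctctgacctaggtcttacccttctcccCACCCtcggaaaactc
Cldn4, chr5:134946935-134947184, minus strand: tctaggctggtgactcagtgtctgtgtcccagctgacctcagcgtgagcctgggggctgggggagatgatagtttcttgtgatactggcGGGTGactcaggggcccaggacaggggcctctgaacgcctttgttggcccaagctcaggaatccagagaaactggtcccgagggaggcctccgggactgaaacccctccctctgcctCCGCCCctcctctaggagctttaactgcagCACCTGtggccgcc
Cldn3, chr5:134985964-134986213, plus strand: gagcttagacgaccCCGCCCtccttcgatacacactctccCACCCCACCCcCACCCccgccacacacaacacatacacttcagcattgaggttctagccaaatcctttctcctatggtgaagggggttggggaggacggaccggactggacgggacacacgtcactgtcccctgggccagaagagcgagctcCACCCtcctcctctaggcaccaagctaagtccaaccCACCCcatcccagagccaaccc
The Cldn7 window held 0 GC boxes, 1 CACC box and 0 E-boxes. The Cldn4 window held 1 of each, and the Cldn3 window 1 GC box and 5 CACC boxes. Among 32851 windows of the same 250 bases, 32.7% held a GC box, 52.0% a CACC box and 17.2% the E-box. The unprinted window before the second Cldn7 start held 1 GC box, 0 CACC boxes and 2 E-boxes. Gene-level counts do not tell which start was used. RefSeq windows were found for 9 of the 10 members, all but Cldn9.

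No neighbour of Cldn7 on the chromosome was called. Of 19 genes within 100 kb, 17 were tested in the pituitary and 0 passed with edgeR. An unadjusted p under 0.05 was found for 2 of the 17 and for 10.9% of all genes tested (1792 of 16389). Their log2 fold changes ran from -0.57 for Tmem95 to 0.36 for Ybx2, with a median of -0.01 beside 0.00 over all genes tested. Elp5, which encodes a subunit of the Elongator complex, lies on the other strand, tail to tail with Cldn7 and 339 bases away, and had a log2 fold change of 0.14 (SE 0.0761).

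Over the 10 pituitary libraries, the genes whose log2 CPM followed Cldn7 most closely were Haus7 (Pearson r = 0.984), Klf16 (0.982), Atat1 (0.967), Med12l (0.963) and Klf14 (0.962). All of these 5 were themselves higher in the labelled KO libraries, with Klf16 at 7.10 against 4.60 CPM and Haus7 at 11.2 against 8.06 CPM. When each library was set against its own group mean, the closest were Zc3h3 (0.976), Pim2 (0.946), Gtf2i (0.940), Ubap2 (0.934) and Kctd3 (0.929), and Klf14 was at 0.190. These are descriptions over 10 libraries of 2 groups, picked from 16388 genes.

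Cldn4 encodes claudin-4, a barrier-forming claudin of simple epithelia, and its gene has 1 exon of 1811 bases on chromosome 5. It lay on the other side from Cldn7. Pituitary libraries labelled KO held 11.3 CPM (31), 10.2 (32), 9.49 (35), 10.5 (50) and 11.9 (66). Those labelled WT held 14.0 CPM (33), 12.4 (34), 22.1 (48), 13.2 (49) and 16.9 (56). The groups did not overlap, though labelled KO library 66 and labelled WT library 34 were close. The log2 fold change was -0.56 (SE 0.144). It was -0.41 without labelled WT library 48 and -0.31 among mice of 21 weeks. Cldn4 was not among the genes called by edgeR, and it was among those called by DESeq2. Groups that do not overlap were found for 2 members, Cldn7 and Cldn4, and for 2.83% of all genes tested in this contrast. Nothing is read from this count either, since Cldn7 was chosen for its separation.

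Per length, Cldn7 and Cldn4 changed places between the labels. In RPKM (CPM per kilobase of exon), the ratio of Cldn7 to Cldn4 was 1.43 to 1.71 in the pituitary libraries labelled KO and 0.342 to 0.687 in those labelled WT. Cldn7 was thus the higher of the pair in all 5 labelled KO libraries and the lower in all 5 labelled WT libraries. The ratio contains the Cldn7 values that chose the family, so nothing is read from this order.

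**Figure D1:**
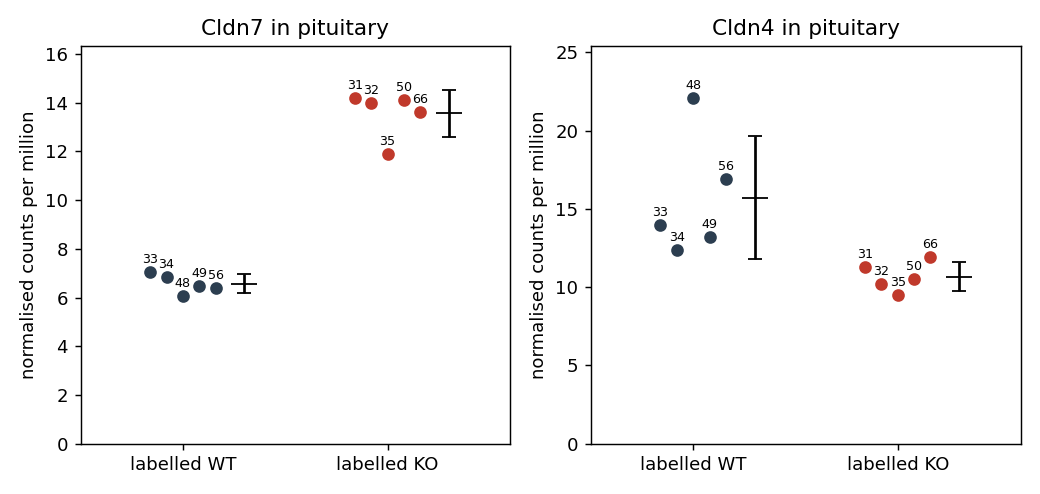
Normalised CPM of Cldn7 (left) and Cldn4 (right) in the 10 pituitary libraries, by label. Points are libraries with their number, bars the mean and SD of 5. Cldn7 sat at 11.9 to 14.2 CPM with the KO label against 6.07 to 7.05 with the WT label, and Cldn4 at 9.49 to 11.9 against 12.4 to 22.1.

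Markers of keratin-rich epithelium moved with Cldn4. Over the 10 pituitary libraries, its log2 CPM had r = 0.907 with the summed keratinocyte and mammary list and 0.836 with the summed folliculostellate list; the points share library depth and scaling. The keratinocyte sum was 21.4 to 25.0 CPM with the KO label and 23.2 to 40.0 CPM with the WT label, highest in labelled WT library 48, where Cldn4 was also highest. In that library Krt14, Krt15 and Krt5, which mark basal skin cells, were at 3.5, 2.09 and 1.90 CPM, against at most 0.913, 0.327 and 0.320 in the other 9. Krt7, Krt19 and Wfdc18 were also highest there, at 16.0, 3.37 and 2.09 CPM. Csn3 was not, at 0.0614 CPM against up to 0.212 CPM. Over all 10 libraries Krt10 spanned 7.17 to 9.17 CPM, Krt1 1.32 to 3.01 CPM and Dsg3 0.0652 to 0.495 CPM. The folliculostellate sum was 248 to 270 CPM with the KO label and 256 to 291 CPM with the WT label. Of the 10 keratinocyte and 10 folliculostellate markers, 4 and 10 were tested between the labels and 0 passed with edgeR, 1 and 2 of them having an unadjusted p under 0.05, beside 10.9% of all genes. DESeq2 also called 0 of either list. Their part in the Cldn4 difference was not tested. In bulk tissue, fewer cells of a type and less RNA per cell cannot be told apart.

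Cldn3 encodes another barrier-forming claudin and is the neighbour of Cldn4, 39279 bases away. It was at 18.1 to 25.2 CPM with the KO label and 19.4 to 23.6 CPM with the WT label in pituitary (log2 fold change -0.10, SE 0.0899), so the groups overlapped. It shares 44 exon bases with Wbscr25, the only such overlap among the members.

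Cldn6 and Cldn9 lie tail to tail on chromosome 17 with 137 bases between them. Claudin-6 is best known from embryonic epithelia and claudin-9 from the inner ear. Cldn9 was at 58.8 CPM (31), 63.9 (32), 61.1 (35), 49.4 (50) and 53.5 (66) with the KO label and at 62.6 CPM (33), 56.7 (34), 56.6 (48), 54.5 (49) and 62.7 (56) with the WT label. The log2 fold change was -0.03 (SE 0.0706), with the groups interleaved. Cldn6, at 8.74 to 11.8 CPM with the KO label and 9.55 to 12.2 CPM with the WT label, had -0.06 (SE 0.106).

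Cldn10 encodes a claudin that forms ion-selective pores. It was at 6.83 CPM (31), 8.31 (32), 7.59 (35), 8.72 (50) and 16.3 (66) in the pituitary libraries labelled KO, and at 6.74 CPM (33), 9.97 (34), 8.10 (48), 6.55 (49) and 8.58 (56) in those labelled WT. Only labelled KO library 66 stood apart. The log2 fold change of 0.26 (SE 0.226) was -0.03 without it. In that library the summed markers of myelin and the posterior lobe, the neural part of the gland, were also highest, at 270 CPM against 145 to 218 in the other 9. Of the 10 markers 3 were above all the other libraries: Col25a1 at 169 against 61.1 to 126 CPM, Rax at 8.94 against 2.02 to 5.66 CPM, and Nkx2-1 at 3 against 0.458 to 1.6 CPM. The myelin genes were not, with Mbp at 45.8 against 43.7 to 53.7 CPM and Cnp at 22.8 against 20.2 to 24.1 CPM, and without Col25a1 the sum was 101 against 82 to 100 CPM. Over the 10 libraries Cldn10 had r = 0.867 with that sum, whose part in the Cldn10 level was not tested.

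The remaining members also overlapped between the labels. Cldn11, the claudin of myelin sheaths, was at 13.5 to 16.4 CPM with the KO label and 10.6 to 16.5 CPM with the WT label (log2 fold change 0.14, SE 0.112). Cldn12, a claudin made in many cell types, was at 46.3 to 54.5 and 49.9 to 55.5 CPM (-0.08, SE 0.0571). Cldn5, the claudin of endothelial cells, was at 0.655 to 2.54 and 1.08 to 2.39 CPM (0.10, SE 0.325). Cldn1, the claudin of the skin barrier, was at 1.76 to 2.12 and 1.47 to 3.02 CPM (-0.14, SE 0.207).

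**Figure D2:**
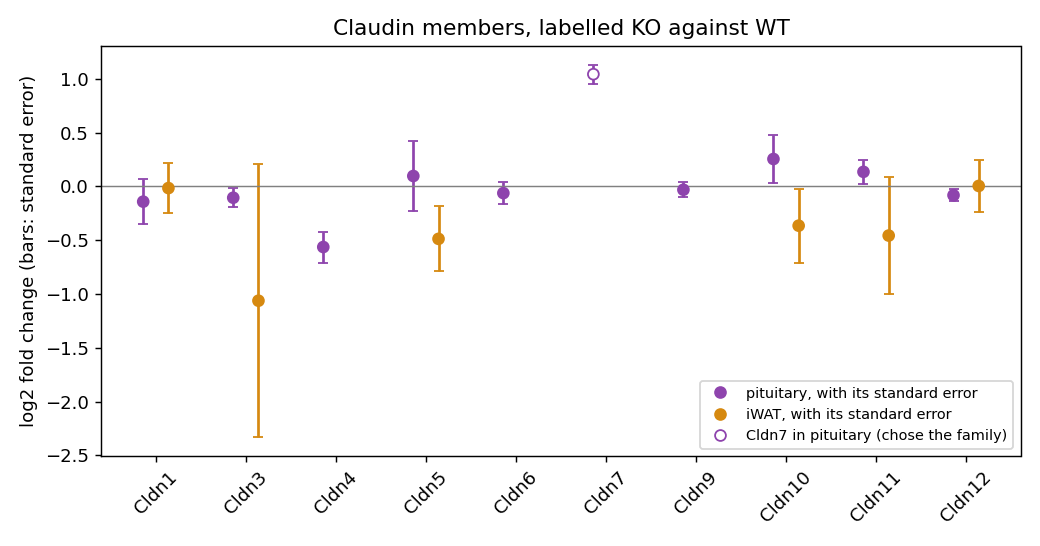
Log2 fold change, labelled KO against WT, of each claudin in pituitary (purple) and iWAT (orange), with its standard error. In pituitary Cldn7 (open point, 1.04) and Cldn4 (-0.56) lie farthest from 0. The 4 members without an orange point had enough counts in too few iWAT libraries, or in none, to be tested there.

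The other genes of the junction gave no call between the labelled genotypes in pituitary with edgeR. The counts below can be read against all genes, of which 10.9% had an unadjusted p under 0.05 and 1.8% were called by DESeq2 (284 of 15756). Among the other membrane proteins of tight junctions 0 of 10 passed, 2 having an unadjusted p under 0.05. Jam3, a junctional adhesion molecule, led them in level at 32.1 ± 2.70 RPKM (SD, n = 10; log2 fold change 0.07), followed by Lsr, which marks contacts where 3 cells meet, at 22.7 ± 2.28 RPKM (-0.16), and Ildr1 at 16.6 ± 0.934 RPKM (0.04). DESeq2 called 1 of this list, Jam2, as higher.

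Of the plaque and polarity proteins 0 of 15 passed, 3 having an unadjusted p under 0.05, and DESeq2 called 1, Mpdz, as higher. Cgnl1, which encodes paracingulin, was at 30.1 ± 1.74 RPKM, with a log2 fold change of 0.03. Arhgef2 and Inadl were at 24.8 ± 2.07 and 22.2 ± 1.36 RPKM, with -0.02 and -0.06.

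Epithelial adhesion genes and partners of claudin-7 numbered 8 tested and 0 passed, 2 having an unadjusted p under 0.05 and 0 being called by DESeq2. Epcam, the partner of claudin-7, was at 163 ± 14.3 RPKM, with 338 ± 38.0 CPM under the KO label and 336 ± 22.2 CPM under the WT label (log2 fold change 0.01, SE 0.0716). The protease inhibitors Spint2 and Spint1, which are known to protect EpCAM and claudin-7 from cleavage, were at 160 ± 17.3 and 41.0 ± 2.97 RPKM, with 0.12 and -0.03. Regulators of junction genes numbered 19 tested and 0 passed, 2 having an unadjusted p under 0.05 and 0 being called by DESeq2. The splicing factor Esrp1 was at 18.7 ± 0.977 RPKM, the repressor Zeb1 at 13.7 ± 0.677 RPKM and Grhl1 at 7.40 ± 1.79 RPKM, with log2 fold changes of -0.07, 0.03 and 0.06.

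Beyond the 10 members, 15 more rows carry a claudin name. In the pituitary 6 of these were tested, 0 passed with edgeR or DESeq2, and 0 had an unadjusted p under 0.05. Their mean levels were 9.50 CPM for Cldn8, 7.09 for Cldn23, 5.20 for Cldn2, 1.44 for Cldn20 and 1.02 for Cldn14. A row named Cldn25, at 19.7 CPM, covers a locus that GENCODE and RefSeq name Cldnd1, a more distant relative. Its log2 fold change was 0.16 (SE 0.1).

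In iWAT the claudins were compared between the labels as well. The family was not picked on this contrast, though its members were chosen with earlier results of these data known. Of the 10 members, 6 had enough counts in enough libraries to be tested and 0 passed with edgeR, as did 0% of the 16105 genes tested. Over all genes 89 had an unadjusted p under 0.05, and 0 of the 6 members did. DESeq2 called 0 genes and 0 members. The labels overlapped for all 6 members tested, while groups that do not overlap were found for 0.0807% of all genes. The members tested had a median log2 fold change of -0.41, beside 0.00 over all genes tested.

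Cldn7 was close to the floor in most iWAT libraries. It was at 0.402 CPM (31), 0.275 (32), 0.466 (35), 0.277 (50) and 2.26 (66) with the KO label and at 0.367 CPM (33), 5.16 (34), 1.06 (48), 0.193 (49) and 0.700 (56) with the WT label. The groups overlapped, and the high libraries were 66 of one label and 34 of the other. Means were 0.735 ± 0.854 and 1.49 ± 2.07 CPM (SD, n = 5 each; 3 to 83 counts a library). An exact two-sided permutation test on log2(CPM + 0.5) over the 252 assignments gave p = 0.556, where the smallest possible is 0.00794. The same test of Cldn4 gave p = 0.484, and both adjusted p-values over these 2 tests were 0.556 by the exact permutation test.

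Cldn4 in iWAT was at 0.352 CPM (31), 0.275 (32), 0.291 (35), 0 (50) and 12.4 (66) with the KO label and at 0.0612 CPM (33), 32.5 (34), 5.45 (48), 1.16 (49) and 0.191 (56) with the WT label. Cldn3 was at 0.0502 CPM (31), 0.344 (32), 0.117 (35), 1.04 (50) and 7.23 (66) with the KO label and at 0.490 CPM (33), 14.1 (34), 2.11 (48), 0.835 (49) and 0.891 (56) with the WT label. Both genes were highest in the libraries where Cldn7 was highest, labelled WT 34, labelled KO 66 and labelled WT 48, in that order. Over the 10 iWAT libraries r was 0.914 for Cldn3 with Cldn4, 0.912 for Cldn3 with Cldn7 and 0.917 for Cldn4 with Cldn7. The log2 fold change of Cldn3 between the labels, -1.06 (SE 1.27), was 0.69 without labelled WT library 34 and -3.29 without labelled KO library 66.

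Some markers of keratin-rich epithelium were high in the same 3 fat libraries. The 10 keratinocyte and mammary markers summed to 137 CPM in labelled WT library 34, 62.0 CPM in labelled KO library 66 and 24.0 CPM in labelled WT library 48, against 2.74 to 8.09 CPM in the other 7. Of the 10 markers, 6 were higher in each of these 3 libraries than in all the other 7, namely Krt5, Krt7, Krt14, Krt19, Csn3 and Wfdc18. The other 4, Krt1, Krt10, Krt15 and Dsg3, were not: Krt10 was at 2.11 to 2.80 CPM in the 3 and 1.41 to 2.61 CPM in the 7, and Krt15 at 0.0586 to 0.231 and 0 to 0.413 CPM. Krt19, a keratin of ducts, was at 70.9, 23.8 and 10.4 CPM in these 3 and at 0.291 to 3.41 CPM elsewhere, and Csn3, a milk casein, at 20.3, 11.1 and 4.11 CPM against 0 to 0.321 CPM. Epcam was at 39.3, 19.3 and 7.86 CPM against 0.208 to 2.39 CPM. With the marker sum, r was 0.990 for Cldn4, 0.931 for Cldn3 and 0.911 for Cldn7 over the 10 libraries. It was 0.757 for Cldn10 and 0.708 for Cldn6, which was near the floor. The remaining members had r from -0.143 (Cldn12) to 0.328 (Cldn11). Cldn8, outside the 10 members, was also highest in these 3 libraries, at 3.04, 2.49 and 0.880 CPM against 0 to 0.257 CPM. The marker genes' part in the claudin levels was not tested. In the pituitary, Csn3 was at 0 to 0.212 CPM in every library.

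**Figure D3:**
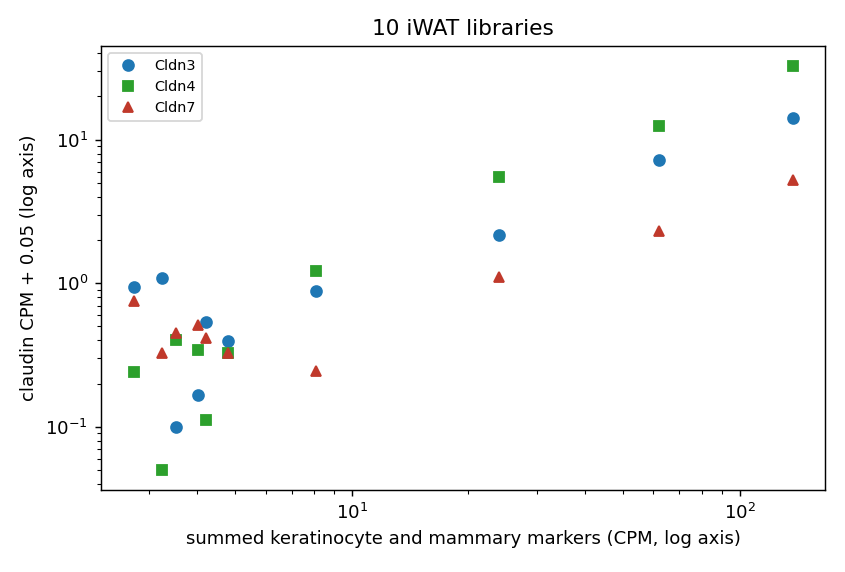
Levels of Cldn3, Cldn4 and Cldn7 (CPM + 0.05, log axis) against the summed level of 10 keratinocyte and mammary markers (CPM, log axis) in the 10 iWAT libraries. All 3 claudins are highest in the 3 libraries with marker sums of 24.0, 62.0 and 137 CPM.

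Other claudins of fat varied with several other marker sums. Cldn11 was at 4.02 CPM (31), 1.86 (32), 2.80 (35), 0.277 (50) and 4.74 (66) with the KO label and at 3.67 CPM (33), 2.98 (34), 5.75 (48), 2.12 (49) and 4.39 (56) with the WT label. Library 50 labelled KO stood lowest, with 4 counts, and there the 8 lymph node markers summed to 13.1 CPM against 233 to 1020 CPM in the other 9. Over the 10 libraries Cldn11 had r = 0.934 with that sum. Cldn11 also had r = -0.856 with the summed blood markers, -0.734 with the endothelial sum and -0.724 with the adipocyte sum. With the myelin and posterior lobe sum it had r = 0.678, and 0.101 over the 10 pituitary libraries. Its log2 fold change between the labels was -0.46 (SE 0.545, edgeR adjusted p = 0.9999). Cldn12 had r = 0.892 with the summed adipocyte markers, which ranged from 6310 to 18400 CPM with the KO label and from 5090 to 14200 CPM with the WT label. Cldn12 also had r = 0.825 with the blood sum, 0.742 with the endothelial sum and -0.703 with the lymph node sum. It was at 17.5 to 33.7 and 14.8 to 34.4 CPM, with a log2 fold change of 0.01 (SE 0.244). Between Cldn11 and Cldn12 r was -0.727. Cldn1 varied with these sums as well. It had r = 0.806 with the myelin and posterior lobe sum and 0.707 with the lymph node sum. With the endothelial and adipocyte sums it had r = -0.730 and -0.720. The part of any of these marker sums in these claudin levels was not tested.

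**Figure D4:**
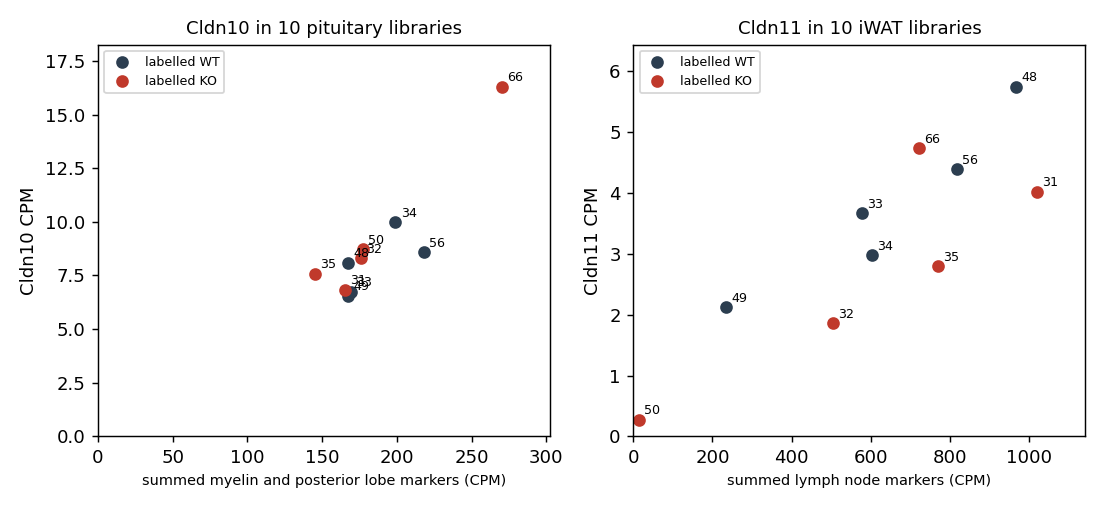
Left, Cldn10 (CPM) against the summed myelin and posterior lobe markers (CPM) in the 10 pituitary libraries, with library 66 labelled KO at 16.3 and 270 CPM. Right, Cldn11 against the summed lymph node markers in the 10 iWAT libraries, with library 50 labelled KO lowest on both axes at 0.277 and 13.1 CPM; numbers name libraries and colours the label.

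Cldn5 was the most abundant member in fat. It was at 47.7 CPM (31), 61.6 (32), 38.1 (35), 52.9 (50) and 98.9 (66) with the KO label and at 92.9 CPM (33), 41.7 (34), 74.2 (48), 101 (49) and 110 (56) with the WT label. The groups overlapped, and the log2 fold change was -0.49 (SE 0.302, edgeR adjusted p = 0.9999). Cldn1 and Cldn10 in iWAT were at 6.5 to 17.4 and 1.04 to 3.91 CPM over the 10 libraries, with -0.01 (SE 0.236) and -0.36 (SE 0.344). Without counts enough to be tested, Cldn6 and Cldn9 had at most 3 counts in any iWAT library.

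Whether a difference between the labels depended on the tissue was tested over all 20 libraries as an interaction. Of the 10 members 0 passed, as did 0% of the 17731 genes tested with edgeR. Unadjusted p-values under 0.05 numbered 428 over all genes (2.41%) and 1 among the members, Cldn7, and DESeq2 called 1 gene and 0 members. Nothing is read from the member counts, since Cldn7 chose the family. Cldn4, Cldn6, Cldn7 and Cldn9 also passed the filter on low counts through pituitary alone. For Cldn7 the log2 difference was -2.02 (iWAT minus pituitary, SE 0.865), a value that contains the pituitary difference for which it was chosen. It was -0.68 without labelled WT iWAT library 34 and -3.03 without labelled KO iWAT library 66.

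The order of the claudins differed between the tissues. Per length, Cldn9 led in pituitary at 40.2 ± 3.24 RPKM (SD, n = 10), or 37.9% of the RPKM summed over the 10 members. Cldn3 followed at 16.8 ± 1.80 RPKM and Cldn12 at 12.6 ± 0.776 RPKM, and each of these 3 was above the next in all 10 libraries. The next 4 had like means over both labels, Cldn4 at 7.29 ± 2.10, Cldn11 at 7.24 ± 0.977, Cldn6 at 7.13 ± 0.763 and Cldn7 at 6.93 ± 2.58 RPKM, but their order depended on the label. Cldn7 was above Cldn6 in all 5 labelled KO libraries (8.20 to 9.75 against 5.80 to 7.80 RPKM) and below it in all 5 labelled WT libraries (4.18 to 4.85 against 6.34 to 8.12 RPKM). This too rests on the Cldn7 values that chose the family and is a description. Cldn4 was below Cldn11 in all 5 labelled KO libraries and above it in all 5 labelled WT libraries. Cldn11 and Cldn6 did not differ beyond their spread within either label, Cldn11 being the higher in 3 of 5 labelled KO and 2 of 5 labelled WT libraries. The ranges of Cldn4 and Cldn6 also overlapped in both labels. Cldn10 was at 6.06 ± 1.97, Cldn5 at 1.13 ± 0.435 and Cldn1 at 0.632 ± 0.139 RPKM.

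In iWAT Cldn5 led at 50.8 ± 19.1 RPKM (SD, n = 10), 73.1% of the members' sum and above Cldn12 in all 10 libraries. Cldn12 was at 5.91 ± 1.62 RPKM and Cldn1 at 3.61 ± 0.921 RPKM, each above the next in 8 of 10. Cldn4 at 2.91 ± 5.71 and Cldn3 at 2.15 ± 3.59 RPKM had SDs above their means. Cldn11 was at 1.74 ± 0.852, Cldn10 at 1.5 ± 0.591, Cldn7 at 0.767 ± 1.07, Cldn6 at 0.0493 ± 0.0386 and Cldn9 at 0.0154 ± 0.0259 RPKM.

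**Figure D5:**
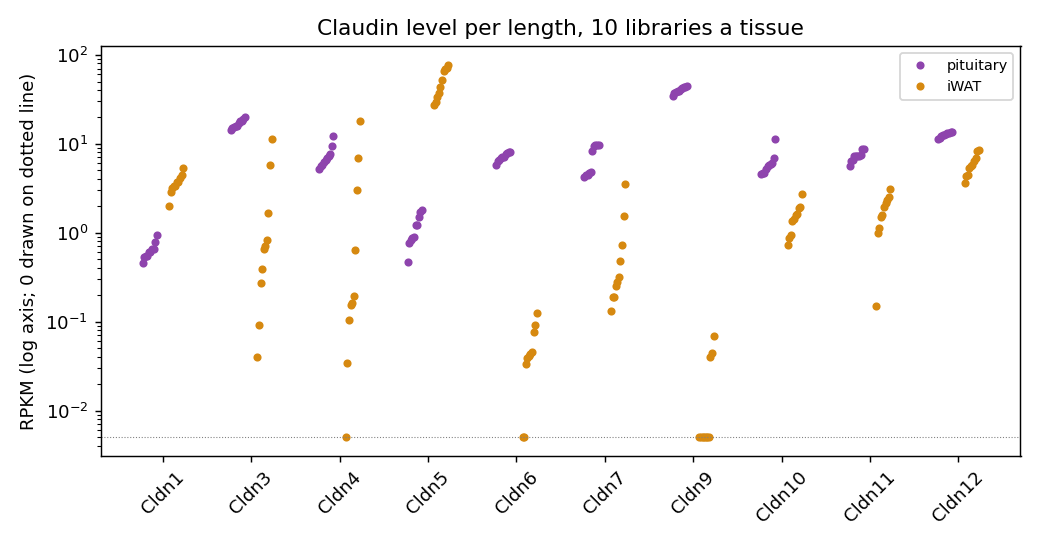
RPKM (log axis) of the 10 claudins in the 10 pituitary (purple) and 10 iWAT (orange) libraries, each point a library in rising order, with levels of 0 on the dotted line. Cldn9 leads in pituitary at a mean of 40.2 RPKM and Cldn5 in iWAT at 50.8 RPKM.

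The tissues were compared within each label. Among WT libraries 9 of 10 members passed edgeR's test, 7 higher and 2 lower in pituitary, where 79.1% of the 17023 genes tested passed (40.2% higher, 38.9% lower). Among libraries labelled KO it was again 9 of 10, the same genes in the same directions, where 75.1% of 16905 passed (37.3% higher, 37.8% lower). With most genes differing, these counts say little about the family, and Cldn4, Cldn6, Cldn7 and Cldn9 passed the filter on low counts through pituitary alone. The values of these 4 are therefore given below as descriptions, without their own tests.

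Cldn9 and Cldn6 showed the widest gaps. Over the 5 WT libraries a tissue, Cldn9 had 4471 counts in pituitary and 1 in iWAT, a scaled ratio of 4350 (95% interval 781 to 172000, counting error only). With the KO label it had 4517 and 3 counts, a ratio of 1440 (494 to 7010). Cldn6 had 837 and 6 counts with the WT label, a ratio of 136 (62.1 to 371), and 820 and 6 with the KO label, a ratio of 131 (60.0 to 358). Both claudins were at or near the floor in all 10 fat libraries.

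Cldn5 and Cldn1 were lower in pituitary. For Cldn5 the log2 fold change was -5.86 (SE 0.324, edgeR adjusted p = 2.164e-08) among WT and -5.31 (SE 0.372, edgeR adjusted p = 3.122e-07) among labelled KO libraries, with all pituitary libraries below all fat libraries. Such separation was found for 69.4% of all genes tested among WT libraries and for 63.5% among those labelled KO. Endothelial markers were lower in pituitary too, 8 of 10 in the WT comparison, where 38.9% of all genes tested were lower. Their median log2 fold change was -1.63, however, with a range of -3.44 to 0.08. Over the 10 libraries of a tissue, Cldn5 had r = 0.355 with the endothelial sum in pituitary and 0.288 in iWAT. Cldn5 amounted to 0.159 to 0.581% of the summed CPM of the 10 endothelial markers in pituitary libraries and to 2.76 to 8.69% in fat libraries. Those shares did not overlap. Cldn1 had -2.56 (SE 0.211, edgeR adjusted p = 4.837e-07) among WT and -2.72 (SE 0.242) among labelled KO libraries.

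Cldn7 stood at a mean of 6.57 CPM in pituitary and 1.49 CPM in iWAT among WT libraries, a log2 difference of 2.03 (SE 0.638), or 3.34 without labelled WT iWAT library 34. Among labelled KO libraries, whose pituitary values chose the family, it stood at 13.6 and 0.735 CPM, a log2 difference of 4.04 (SE 0.5), or 5.05 without labelled KO iWAT library 66. In each label all the pituitary libraries lay above all the fat libraries. Separation in either direction was found for 69.4% of all genes tested among WT and 63.5% among labelled KO libraries.

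Cldn3, Cldn10, Cldn11 and Cldn12 passed the filter in both tissues and were higher in pituitary. Cldn3 had 2.47 (SE 0.740) and 3.40 (SE 0.891), or 4.19 and 5.64 without the same 2 fat libraries. Cldn11 had 1.66 (SE 0.238) and 2.22 (SE 0.461), Cldn10 1.6 (SE 0.255) and 2.18 (SE 0.317), and Cldn12 1.03 (SE 0.175) and 0.90 (SE 0.178), all past the threshold with edgeR in both labels. The pituitary libraries lay above all the fat libraries of their label for each of these 4 genes. Over all genes tested, 40.2% were called higher among WT and 37.3% among labelled KO libraries. Groups that do not overlap, in either direction, were found for 69.4% and 63.5%.

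Cldn4 was the member whose tissues overlapped in both labels. Its log2 difference was 0.90 (SE 1) among WT and 1.87 (SE 1.05) among labelled KO libraries. Without labelled WT iWAT library 34 the first was 3.04, and without labelled KO iWAT library 66 the second was 5.28.

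Of the claudins outside the 10 members, those that passed the filter in 1 tissue alone are given as levels without a test. Cldn15, Cldn19 and Cldn22 were at a mean of 32.2, 3.42 and 1.26 CPM in iWAT and at 0.325, 0.138 and 0.409 CPM in pituitary. For Cldn8, Cldn23, Cldn2 and Cldn14 the means were 9.50, 7.09, 5.20 and 1.02 CPM in pituitary and 0.702, 0.0922, 0.527 and 0.0683 CPM in iWAT. Cldn20, tested in both tissues, did not pass with edgeR among WT libraries (log2 fold change 0.31, SE 0.246) but did among those labelled KO (0.82, SE 0.248). Cldn25, also tested in both, passed with edgeR in each label and was the lower in pituitary (-0.37, SE 0.0953, among WT and -0.29, SE 0.0956, among labelled KO libraries).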

How the data were processed

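The deposited count tables hold, per the file headers, whole-number read counts for each gene, with its exon intervals, strand and summed exon length in bases as the authors' annotation gives them. Reads were aligned with STAR 2.4.0 and counted with featureCounts 1.4.4 on mm10 (GRCm38), per the submitters' processing notes. Libraries were single-end with reads of 100 nucleotides, per the labels' protocols. The strand setting of the counting was not given in the sources used here.

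From these counts, genes passing filterByExpr (minimum count 10) were fitted in edgeR 4.0.16 (R 4.3.3) with TMM scaling and the robust quasi-likelihood test, adjusted by Benjamini-Hochberg over all genes tested, with a threshold of 0.05. Each tissue was fitted alone, each label alone between tissues, and all 20 libraries together for the interaction. The SE is the log2 fold change divided by the square root of F. CPM and RPKM use TMM factors within a tissue, and levels set across tissues rest on those separate scalings. Correlations use log2(CPM + 0.5). DESeq2 1.42.0, other scalings and filters, age, 21-week mice, a replicate block and leaving out each library were the alternatives. The fit was tested on simulated data.

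No 2 libraries of the same tissue and label agreed within sampling noise (smallest reduced chi-square 4.70). Libraries of different groups were not compared in this way. No window of 100 bases in a member's GENCODE transcripts occurs in another gene's transcripts. The members and gene lists were chosen with earlier results of these data known. Genes named are the members, other claudins of at least 1 CPM on average in a tissue, list genes past the threshold or among the 3 highest in pituitary RPKM, genes within 100 kb of Cldn7, the 5 closest to it by each correlation, and Klf14. The markers quoted singly, and Jam2 and Mpdz, were chosen after their values were seen.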

Additional observations from a re-analysis of the deposited data

Results flagged for a closer look

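In each group of 5, a library was singled out when its gap to the nearest other exceeded 0.71 of the group's range. That happened in 11 of 40 groups. Chance gives about 5% for independent, normally distributed values. These values are not independent, since Cldn3, Cldn4 and Cldn7 varied together in iWAT, so nothing is read from the count.

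In iWAT, library 66 labelled KO was high for Cldn3 (7.23 CPM), Cldn4 (12.4 CPM) and Cldn7 (2.26 CPM). Library 34 labelled WT was high for the same 3 claudins, at 14.1, 32.5 and 5.16 CPM. Cldn9 in labelled WT library 56 was singled out at 0.0637 CPM, which is 1 count beside 0 in the other 4.

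In pituitary, library 66 labelled KO was high for Cldn10 (16.3 CPM) and library 32 labelled KO for Cldn3 (25.2 CPM). Library 35 labelled KO was low for Cldn7 (11.9 CPM) and high for Cldn11 (16.4 CPM).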

How the results depend on the processing

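Between the labels in pituitary 90 genes and 1 member, Cldn7, passed with edgeR. DESeq2 called 284 genes and 2 members, age as a covariate left 44 genes, mice of 21 weeks alone gave 5 genes and 0 members, and 1 fit over all 20 libraries, in which fat and pituitary share an estimate of spread, gave 1 gene and 0 members. Leaving out each library gave 50 to 112 genes (55 without labelled KO 32, 50 without labelled WT 49, 51 without labelled WT 56) and 1 to 1 members. The interaction's 0 genes became 1 with DESeq2 and 0 to 1 with a library left out (1 without labelled WT iWAT 33). In iWAT 0 genes and 0 members passed under every alternative run. Between tissues the counts stayed within 1.5 times, at 13051 to 14833 genes with the WT label and 12270 to 14407 with the KO label.

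Whether library numbers pair the samples was not settled. Each number carried the same label and age in both tissues. Same-numbered libraries of the 2 tissues had r from -0.09 to 0.10 in their deviations, 0 of 10 above 0.1. Still, 5 of 10 pituitary libraries correlated best with their own number, each among the 5 fat libraries of its label. The main tests between tissues and of the interaction treat the libraries as unpaired. With the number as a replicate block, the log2 difference of Cldn4 between labelled KO tissues was 3.88, against 1.87 without the block. Both values are descriptions, since Cldn4 passed the filter through pituitary alone. Depth limits Cldn6 and Cldn9 in iWAT, at 0 to 3 counts a library.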
